A study of Cercocebus atys with 16 samples.

Results

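IFNG and IL22 are cytokine genes that lie close together on chromosome 11 of the rhesus macaque genome, and their transcripts were measured in double-negative T cells of sooty mangabeys with and without stimulation through the T cell receptor. The members were the probes whose gene name in the array files, in the annotation edition of the 12 later arrays, was IFNG or IL22. That rule found 2 genes, each with 1 probe, among 12404 named genes and 43603 distinct probes. Both passed the filter on dim probes, as did 9023 named genes. The rule used no measured value, but the members were chosen with earlier results of these data known.

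IFNG encodes interferon gamma, the type II interferon, which T cells and NK cells release and which acts through a receptor made of IFNGR1 and IFNGR2 with the kinases JAK1 and JAK2. IL22 encodes interleukin 22, a cytokine of the IL-10 family that lymphocytes make and that acts on epithelial and other non-blood cells through IL22RA1 and IL10RB. In human T cells TBX21 is the factor known for IFNG, while AHR is among those known for IL22, and the 2 cytokines are often described as products of different helper cell types. IL26, another member of the IL-10 family, lies between them in primates.

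The samples were 16 arrays with 2 colours from 4 SIV-infected sooty mangabeys (Cercocebus atys), a natural host of the virus. In stimulated cells anti-CD3 and anti-CD28, which the labels give as 3 and 1 mg/ml, were applied for 4 hours, and unstimulated cells of the same animal were the reference. FBR and FTV are labelled CD4 low, and FNV and FKN CD4 normal, so each class had 2 animals. Double-negative cells carry CD3 without CD4 or CD8 and were isolated from blood with magnetic beads, at a purity above 98% per the labels, then rested overnight. Each animal had 2 ratio arrays, which set its stimulated RNA against its unstimulated RNA in opposite dye orientations, 1 array with stimulated RNA in both channels and 1 with unstimulated RNA in both channels. Both ratio arrays hold the same RNA and counted as 1 sample, so n = 4 animals for every response. All groups shared the infection, the isolation and the overnight rest, and 4 animals set the precision. In bulk RNA, more cells with a transcript and more transcript per cell cannot be told apart.

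The arrays of FNV were scanned in an earlier batch than the other 12 and had dimmer signal. Between 33.3% and 64.8% of their spots were well above background in a channel, against 57% to 65% on the later arrays, and the dimmest was the stimulated self-self array of FNV. On 1 array of FNV the title and a characteristic disagree on which channel held stimulated RNA; the title was followed. No spot was saturated.

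The probes are shown because they fix which part of each transcript the values stand for. They were designed on the macaque genome, build rheMac2, and bind the minus-strand transcripts of chromosome 11. The IFNG probe lies at chr11:65144018-65144077, with its first base at position 400 of the transcript, and the IL22 probe at chr11:65239508-65239567, from position 883. IL26, between them, has its probe at chr11:65189488-65189547. The IFNG and IL26 probes are printed whole, at 60 bases, and the first 30 bases of the IL22 probe are given.
IFNG probe: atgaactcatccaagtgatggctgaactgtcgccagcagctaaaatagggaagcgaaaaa
IL26 probe: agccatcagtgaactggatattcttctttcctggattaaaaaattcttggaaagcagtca
IL22 probe, first 30 bases: aaacaattgtctttttccgtaaagaagatt
The probes have a GC content of 45% for IFNG, 36.7% for IL26 and 35% for IL22. A mangabey sequence that differs from the macaque probe may bind it less well. Whether the mangabey transcripts match these letters was not tested, and levels are therefore not compared between probes.

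IFNG RNA rose strongly on stimulation in every animal. The log2 ratio of stimulated over unstimulated RNA, averaged over the 2 dye orientations, was 6.11 in FBR, 5.26 in FTV, 6.04 in FNV and 4.62 in FKN. The lowest of these is still a 24.6-fold difference, and the highest is 68.9-fold. The scanner software's own ratios spanned 27.1-fold to 108-fold, the highest in FNV, where the loess value was 65.8-fold. The mean was 5.51 ± 0.70 (SD, n = 4), or 45.5-fold, with a limma adjusted p of 0.000555. Across all 22825 tested features, 19.0% were called higher, 21.0% lower and 40.0% in either direction at an adjusted p under 0.05, so a call by itself is common here. In size the IFNG response ranked 3rd among the 9023 named genes tested. The later scan batch alone gave 5.33, against 6.04 in the single animal of the earlier batch.

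The raw signals, before any normalization, were higher for stimulated RNA in both dye orientations. On the array of FBR with stimulated RNA in Cy5, the IFNG spot had a mean signal of 34000 units for stimulated RNA and 201 for unstimulated RNA. FTV had 69000 and 559 on the matching array. In FNV the matching signals were 10100 for stimulated RNA and 135 for unstimulated RNA, and in FKN they were 28400 and 381. With the dyes exchanged the ratio of the 2 raw signals was smaller in every animal, so raw ratios hold a dye difference and are not read as folds. On those arrays stimulated RNA, in Cy3, gave 16700 units in FBR, 32000 in FTV, 5950 in FNV and 14400 in FKN, against 432, 1560, 217 and 1150 for unstimulated RNA. Unstimulated signals were small but not absent: the spot was flagged well above background in all 16 unstimulated channels and in all 16 stimulated ones.

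IL22 RNA rose by about as much. Its log2 ratio was 5.43 in FBR, 6.39 in FTV, 5.58 in FNV and 5.20 in FKN, so every animal exceeded a 36.7-fold difference or equalled it. FTV, at 83.8-fold, stood highest, and the scanner software's own ratio there was larger, at 137-fold. The mean was 5.65 ± 0.52 (SD, n = 4), or 50.2-fold, with a limma adjusted p of 0.000545. By size it ranked 2nd of the named genes, behind IL5 at 6.0 on the log2 scale, and IFNG followed it. These ranks hold for the ratio arrays: on the self-self arrays IL4, IL5 and IL9 also exceeded both genes. Without FNV, which leaves the later scan batch, the mean was 5.67.

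Raw IL22 signals spanned a wider range of levels between animals than IFNG did. With stimulated RNA in Cy5, FBR gave 136000 units for stimulated and 1200 for unstimulated RNA, while FTV gave 22700 and 111. The unstimulated signal of FTV was only 2.21 times its local background on that array, against 23 times in FBR. It was still flagged well above background, as were all 16 unstimulated channels and all 16 stimulated channels. FNV gave 17000 for stimulated and 314 for unstimulated RNA, and FKN gave 61600 and 564. With stimulated RNA in Cy3 the raw ratios were again smaller, as in FTV, with 10700 and 200 units.

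**Figure D1:**
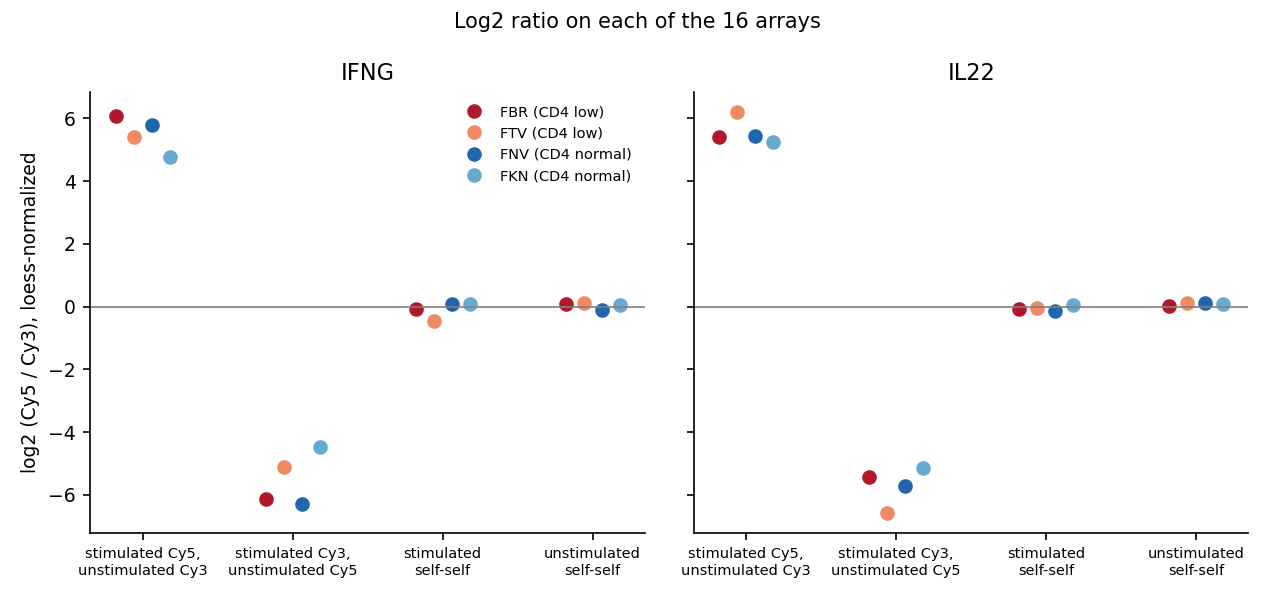
Log2 ratio of Cy5 over Cy3 after loess normalization (vertical axis) for IFNG and IL22 on each of the 16 arrays, grouped by what the 2 channels held; points are single arrays, coloured by animal. The sign turns with the dyes, from 4.77 to 6.08 with stimulated RNA in Cy5 for IFNG, while the self-self arrays lie near 0.

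The dye exchange and the self-self arrays give the technical error of these ratios. Turned to stimulated over unstimulated, the IFNG ratios with stimulated RNA in Cy5 and in Cy3 were 6.08 and 6.13 in FBR, 5.40 and 5.13 in FTV, 5.79 and 6.29 in FNV, and 4.77 and 4.47 in FKN. For IL22 the pairs were 5.41 and 5.45 in FBR, 6.20 and 6.57 in FTV, 5.43 and 5.73 in FNV, and 5.26 and 5.13 in FKN. The 2 orientations of an animal thus differed by at most 0.50 on the log2 scale for IFNG and 0.37 for IL22. On the 8 self-self arrays, where both channels held the same RNA, the log2 ratio of Cy5 over Cy3 stayed within 0.45 of 0 for IFNG and within 0.15 for IL22. The largest of these, on the stimulated self-self array of FTV for IFNG, was -0.45 after loess and 0.029 in the scanner software's own ratio. The smallest response, 4.62, was far above the largest of these errors, 0.50. The authors' deposited table gives log2 ratios of 6.42, 5.30, 6.58 and 4.73 for IFNG in FBR, FTV, FNV and FKN. For IL22 the authors' deposited table has 5.42, 7.15, 5.82 and 5.26 in the same order.

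**Figure D2:**
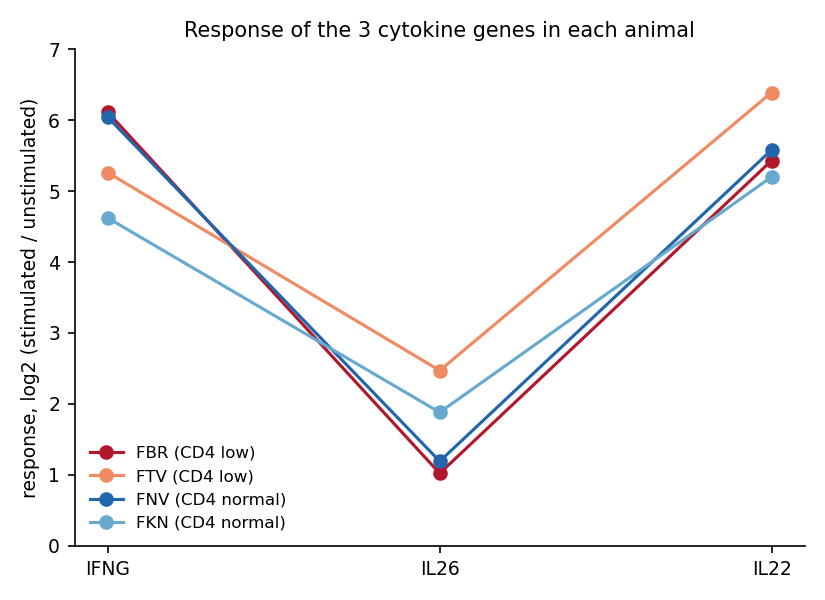
Response, as log2 of stimulated over unstimulated RNA (vertical axis, from 0), of IFNG, IL26 and IL22, in the order of their probes; each line is 1 animal. IFNG and IL22 lie between 4.62 and 6.39, IL26 between 1.02 and 2.47, and the lines cross.

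Which of the 2 genes had the larger response was not the same in all 4 animals. IFNG minus IL22, on the log2 scale of responses, was 0.67 in FBR, -1.12 in FTV, 0.46 in FNV and -0.58 in FKN. IFNG thus had the larger response in 2 of 4 animals, 1 from each CD4 class. The mean difference was -0.14 ± 0.85 (SD, n = 4), with an exact sign-change permutation p of 0.875, two-sided; the most extreme outcome holds 2 of the 16 sign patterns, so 4 animals cannot reach 0.05. In each animal the difference kept its sign in both dye orientations and between the self-self arrays, where it was 0.86 in FBR, -0.66 in FTV, 0.12 in FNV and -0.19 in FKN. These arrays hold the same RNA of an animal, so they do not show whether another stimulation would give the same order. In FNV and FKN the differences on the ratio arrays were close in size to the largest gap between dye orientations.

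IL26, whose product acts on epithelial cells in humans and whose gene is missing in mice, rose far less than its neighbours on either side. Its log2 response was 1.02 in FBR, 2.47 in FTV, 1.19 in FNV and 1.88 in FKN. The mean of 1.64 ± 0.67 (SD, n = 4), or 3.12-fold, had a limma adjusted p of 0.00662. All 4 IL26 responses lay below all 8 responses of IFNG and IL22. Unlike its neighbours, IL26 had overlapping levels in the 2 conditions. Its stimulated levels were 12.15 in FBR, 11.13 in FTV, 10.77 in FNV and 11.42 in FKN, against unstimulated levels of 11.20, 8.80, 9.67 and 9.66.

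**Figure D3:**
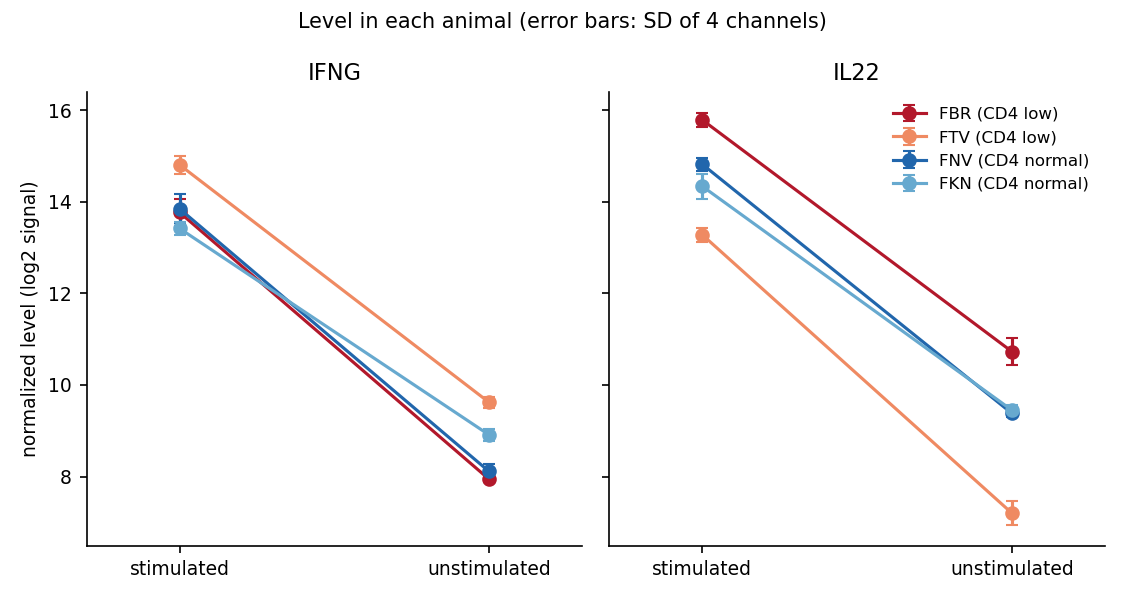
Normalized level, as log2 signal (vertical axis), of IFNG and IL22 in stimulated and unstimulated cells; points are the mean of 4 channels in 1 animal, bars their SD, and lines join an animal. Every stimulated level is above every unstimulated one. In both conditions FTV is highest for IFNG and lowest for IL22, and FBR is highest for IL22.

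Levels were set on a common log2 scale across arrays, each as the mean of 4 channels per animal and condition. Stimulated IFNG stood at 13.77 in FBR, 14.81 in FTV, 13.85 in FNV and 13.42 in FKN. Unstimulated IFNG was 7.94 in FBR, 9.62 in FTV, 8.11 in FNV and 8.91 in FKN. The conditions did not overlap: the lowest stimulated level exceeded the highest unstimulated one by 3.80. FTV had the most IFNG RNA in both conditions. The SD of the 4 channels behind a level was at most 0.32 for stimulated and 0.16 for unstimulated IFNG, less than the lead of FTV over the next animal in either condition.

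Stimulated IL22 levels were 15.79 in FBR, 13.28 in FTV, 14.82 in FNV and 14.34 in FKN. Unstimulated levels were 10.73 in FBR, 7.20 in FTV, 9.38 in FNV and 9.45 in FKN. Again the conditions stayed apart, by 2.55. Here FBR was highest and FTV lowest in both conditions, so the 2 CD4 low animals held the extremes. Unstimulated IL22 differed 11.6-fold between FBR and FTV and stimulated IL22 5.68-fold, against 3.19-fold and 2.63-fold between the extremes of IFNG. FNV and FKN had nearly equal unstimulated IL22, 0.07 apart, within the SD of their channels.

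The 2 genes therefore ordered the CD4 low animals in opposite ways. FTV was above FBR for IFNG and below FBR for IL22, in stimulated and in unstimulated cells. IL26 followed IL22 between these 2 animals, with FBR above FTV in both conditions. TBX21, the lineage factor of IFNG-producing T cells, was highest in FTV, at 10.82 stimulated and 10.37 unstimulated. The other animals had 10.34, 10.12 and 10.36 stimulated and 9.84, 9.81 and 9.89 unstimulated for FBR, FNV and FKN. AHR, named above for IL22, did not follow IL22 in stimulated cells, where it was also highest in FTV. Its stimulated levels were 9.11 in FBR, 9.25 in FTV, 7.89 in FNV and 8.84 in FKN. Unstimulated AHR was highest in FBR, with 8.84 in FBR, 8.18 in FTV, 7.46 in FNV and 8.43 in FKN. These are the values of 4 single animals, and no test was made across them.

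Neither gene differed detectably between CD4 low and CD4 normal animals. The IFNG response averaged 5.68 ± 0.60 in CD4 low and 5.33 ± 1.00 in CD4 normal animals (SD, n = 2 each), a difference of 0.35 with a 95% interval from -1.17 to 1.88. For IL22 the response averaged 5.91 ± 0.68 in CD4 low and 5.39 ± 0.27 in CD4 normal animals, and the interval of the difference of 0.52 ran from -0.46 to 1.5. Both had a limma adjusted p of 1. Over all features 0.00% were called in this comparison by limma, and 2.15% had an unadjusted p under 0.05. With FNV left out the differences were 1.06 for IFNG and 0.71 for IL22, and the single CD4 normal animal then left was assumed to vary like the others.

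Ordered by level, IFNG stood at 14.29 ± 0.74 in stimulated CD4 low cells, 13.63 ± 0.31 in stimulated CD4 normal cells, 8.78 ± 1.18 in unstimulated CD4 low cells and 8.51 ± 0.56 in unstimulated CD4 normal cells (SD, n = 2 each). The 2 stimulated groups overlapped, as did the 2 unstimulated groups. The differences of 0.66 stimulated and 0.27 unstimulated had limma adjusted p-values of 0.833 and 0.899. IL22 stood at 14.54 ± 1.77 in stimulated CD4 low and 14.58 ± 0.34 in stimulated CD4 normal cells, with an interval of the difference from -2.39 to 2.31. In unstimulated cells it was 8.96 ± 2.50 in CD4 low and 9.41 ± 0.05 in CD4 normal animals. The IL22 differences of -0.04 stimulated and -0.45 unstimulated had limma adjusted p-values of 0.99 and 0.909. At either level 0.00% of all features were called, while 1.99% of stimulated and 1.66% of unstimulated levels had an unadjusted p under 0.05. Leaving out FKN called 4058 features for the stimulated level with FNV, alone in its scan batch, as the single CD4 normal animal, and neither gene was among them. Without FNV the IFNG differences were 0.87 stimulated and -0.13 unstimulated, and those of IL22 were 0.20 and -0.48.

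**Figure D4:**
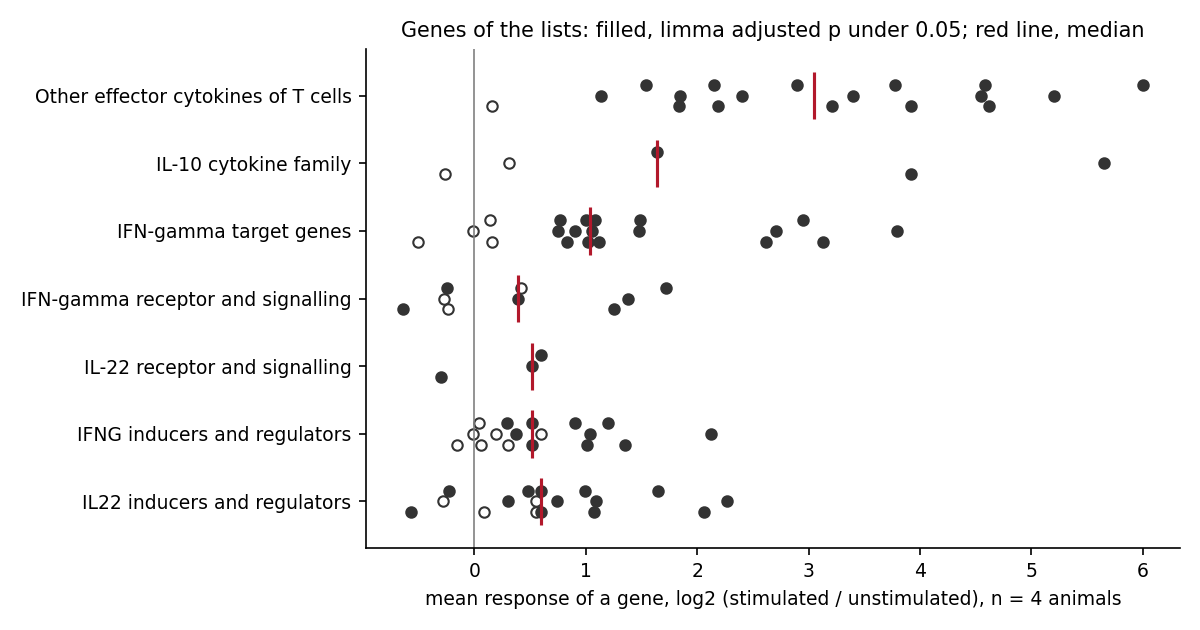
Mean response of each tested gene in 7 gene lists, as log2 of stimulated over unstimulated RNA (horizontal axis, n = 4 animals); filled points passed an adjusted p under 0.05 in limma, and red lines are list medians. The medians run from 0.39 for interferon gamma receptor and signalling genes to 3.05 for other effector cytokines.

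Among genes known to induce or regulate IFNG, all 17 were tested, 10 rose, 0 fell and 7 did not pass. Their median response was 0.52 on the log2 scale, against -0.01 over all features. ID2, an inhibitor of E-protein factors, rose most, with 2.05 in FBR, 2.42 in FTV, 1.59 in FNV and 2.43 in FKN (mean 2.12 ± 0.40, limma adjusted p = 0.000868). STAT4, which carries the interleukin 12 signal, rose by a mean of 1.35 ± 0.29, BHLHE40 by 1.20 ± 0.12 and RUNX1 by 1.04 ± 0.20. TBX21 rose little, by 0.37 ± 0.21 (adjusted p = 0.0269), and missed the threshold when FTV, FBR or FKN was left out, with adjusted p-values of 0.0975, 0.112 and 0.106. The list's count was 12 without FNV and 6 without FBR. The 10 that rose are 58.8% of the list, where 19.0% of all features were called higher.

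Of 18 genes listed as inducers or regulators of IL22, 17 were tested, 11 rose, 2 fell and 4 did not pass, with a median of 0.60. The share that rose was 64.7%, against 19.0% of all features, and the 2 that fell are set against 21.0%. BATF, an AP-1 factor of IL17-producing cells, rose by 2.27 ± 0.55 and IRF4, its partner, by 2.06 ± 0.33. HIF1A, an oxygen-sensing factor, rose by 1.09 ± 0.18. AHR, the receptor for aryl hydrocarbons, rose by 0.60 ± 0.39 (adjusted p = 0.0314), which became 0.0643 without FBR and 0.0946 without FKN. TGFBR2, a receptor of transforming growth factor beta, fell by 0.57 (adjusted p = 0.0286, but 0.0526 without FNV, 0.0875 without FKN and 0.0561 without FTV), and ARNT, the partner of AHR, fell by 0.23. With FKN left out, 7 genes of the list rose, and 12 without FNV.

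By their brightest probes, the 2 chains of the interferon gamma receptor moved in opposite directions. Both kept these directions but missed the threshold with arrays centred on their median. All 9 genes listed for its receptor and signalling were tested; 4 rose, 2 fell and 3 did not pass, with a median of 0.39. Over all features 19.0% were called higher and 21.0% lower, so the number that fell is near that background. IFNGR1, the ligand-binding chain, had log2 responses of 0.24 in FBR, 0.45 in FTV, 0.34 in FNV and 0.53 in FKN (adjusted p = 0.00914). IFNGR2, the signalling chain, had -0.84, -0.43, -0.56 and -0.75 in the same animals (adjusted p = 0.00394). SOCS1, a feedback inhibitor of JAK kinases, rose by 1.72 ± 0.25, JAK2 by 1.38 ± 0.37 and the phosphatase PTPN2 by 1.25 ± 0.31. PIAS1, an inhibitor of STAT signalling, fell by 0.25.

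The specific receptor chain of interleukin 22 was not detected in these cells. IL22RA1 was not well above background in any of 16 stimulated or 16 unstimulated channels, and the same was true of IL22RA2, the soluble binding protein. Of 6 genes listed for the receptor and its signalling, 5 had a probe and 3 were tested. Of these 2 rose and 1 fell, where 19.0% of all features were called higher and 21.0% lower. STAT3, the main transducer, rose by 0.60 ± 0.20 and SOCS3, its feedback inhibitor, by 0.52 ± 0.21. IL10RB, the chain shared with the interleukin 10 receptor, fell by 0.30 (adjusted p = 0.0148, but 0.0713 without FBR and 0.0791 without FKN). SOCS3 lost its call in the same 2 fits, at 0.0546 and 0.0536. With arrays centred on their median, IFNGR1, IFNGR2, PIAS1, IL10RB, SOCS3, TBX21, AHR, ARNT and TGFBR2 kept their directions but missed the threshold, with adjusted p-values from 0.0619 for ARNT to 0.343 for PIAS1. PIAS1 and ARNT also missed it when FKN, FBR or FTV was left out.

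Genes known to be induced by interferon gamma were mostly higher in stimulated cells. Of 24 listed, 20 had a probe and were tested; 16 rose, 0 fell and 4 did not pass, which is 80% called higher where the figure is 19.0% over all features. Their median response was 1.04. CXCL11, a chemokine for CXCR3-bearing T cells, had log2 responses of 4.11 in FBR, 2.47 in FTV, 4.80 in FNV and 3.78 in FKN (mean 3.79 ± 0.98, limma adjusted p = 0.00162). CXCL10 rose by 3.13 ± 0.94 and CXCL9, from the same receptor's ligands, by 2.95 ± 0.96. FTV had the smallest response of CXCL10 and CXCL11 and the highest unstimulated levels of both, at 13.17 for CXCL10 against 9.77 to 10.14 in the other 3 animals. IRF8, an interferon regulatory factor, rose by 2.71 ± 1.00. Without FNV 16 genes of the list rose as well, and over the 4 fits that left out 1 animal the count ran from 14 to 16.

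Among its relatives in the IL-10 family, IL22 rose most. Of 12 genes listed, 8 had a probe and 5 were tested: IL22, IL10 and IL26 rose, while IL19 (0.31 ± 0.31, adjusted p = 0.102) and IL29 (-0.26 ± 0.30, adjusted p = 0.145) did not pass. The 3 that rose, with IL22 itself among them, are 60% of those tested, where 19.0% of all features were called higher. IL10, an anti-inflammatory cytokine, had log2 responses of 3.51 in FBR, 3.82 in FTV, 4.25 in FNV and 4.11 in FKN (mean 3.92 ± 0.33, limma adjusted p = 0.000545). IL20, IL24 and IL28B did not pass the filter on dim probes. IL28B and IL29 are interferon lambda genes. Of 8 type I and type II interferon genes with a probe, IFNG was the one tested: IFNB1, IFNK, IFNW1 and 4 interferon alpha genes were too dim.

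Other effector cytokines of T cells rose along with the 2 genes. Of 18 listed and tested, 17 rose and LTB (0.16 ± 0.14, adjusted p = 0.133) did not pass. The share that rose was 94.4%, against 19.0% of all features, in a list chosen with earlier results of these data known. The median response of the list was 3.05, below the 5.51 of IFNG and the 5.65 of IL22. IL5, which drives eosinophils, was the largest at 6.0 ± 0.58, followed by IL9 at 5.20 ± 0.71, IL4 at 4.62 ± 0.44 and IL2 at 4.58 ± 1.58. On the ratio arrays IL5 was thus the 1 gene of this list with a mean above those of IFNG and IL22. On the self-self arrays IL4 at 5.87, IL5 at 5.57 and IL9 at 5.49 were all above IFNG at 5.12 and IL22 at 5.09. IL2, the T cell growth factor, varied more between animals than they did, with 6.44 in FBR, 5.29 in FTV, 3.61 in FNV and 2.99 in FKN.

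**Figure D5:**
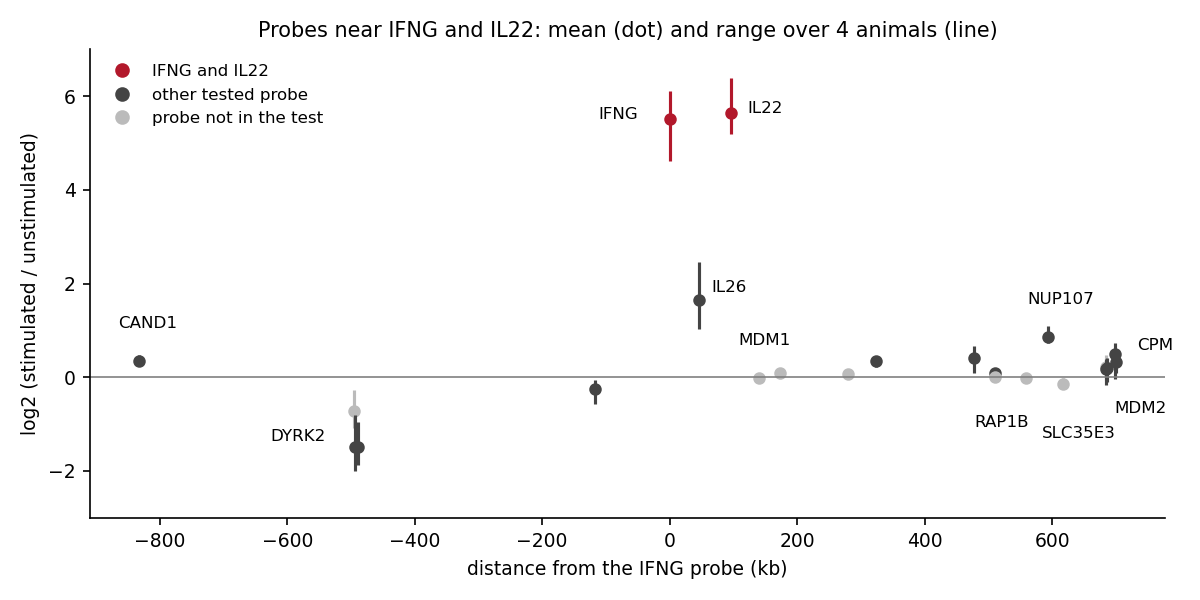
Response, as log2 of stimulated over unstimulated RNA (vertical axis), of 23 probes against their distance in kb from the IFNG probe (horizontal axis); dots are means and lines ranges over 4 animals. IFNG and IL22 stand above 5, IL26 between them at 1.64, and the remaining means lie between -1.49 and 0.85.

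The region around the 2 genes held 23 probes within 1000 kb of either member, 15 of them for 11 named genes. From IFNG it was 45.5 kb to the IL26 probe and 95.5 kb to the IL22 probe. Of 13 other tested features in the region, 7 rose and 2 fell, but with arrays centred on their median 2 rose and 2 fell. Over all 22825 features 19.0% were called higher and 21.0% lower, and 1577 and 2510 with median centring. Leaving out FKN also lowered the count that rose, to 3, FBR to 4 and FTV to 4, while 9 rose without FNV. Beyond IL26 the largest rise was that of NUP107, a nuclear pore component 594.3 kb away, with 0.73 in FBR, 1.09 in FTV, 0.77 in FNV and 0.81 in FKN. DYRK2, a kinase gene on the other side of IFNG, fell by 1.49 on average for its brighter probe and by 0.73 for the other. The second tested feature that fell was an unnamed probe on the same strand, with a mean of -1.48. It lay at -488.9 kb from the IFNG probe and the brighter DYRK2 probe at -493.5 kb. Whether both stand for 1 transcript was not tested, so they may not be separate results. MDM1, the nearest named gene beyond IL22, was not well above background in any channel with either of its probes. CAND1, a regulator of ubiquitin ligases, rose by 0.35 ± 0.09 and CPM, a membrane carboxypeptidase gene, by 0.32 ± 0.16, but neither passed with median centring (adjusted p of 0.20 and 0.0647). CPM also missed the threshold without FKN, FBR or FTV (0.106, 0.116 and 0.0981) and on self-self arrays with the animal as a block (0.172). CAND1 had 0.11 (adjusted p = 0.183) with stimulated RNA in Cy3 only. RAP1B, a small GTPase (0.10 ± 0.10, adjusted p = 0.228), and MDM2, the ligase that degrades p53 (0.18 ± 0.24, adjusted p = 0.219), did not pass, and SLC35E3 was too dim to test. In each animal IFNG and IL22 had the 2 largest rises of the region and IL26 the next. The brighter DYRK2 probe, with -1.62 in FBR and -2.01 in FKN, changed more in size than IL26 there. In FTV and FNV it changed less than IL26.

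Likeness of levels was measured by Pearson's r over the 8 levels of 4 animals in 2 conditions, and is a description. The stimulated and unstimulated levels form 2 clusters, so r is high for any gene with a steady response. SERPINB9, an inhibitor of granzyme B, came closest to IFNG at 0.9912, followed by OTUD4, a deubiquitinase, at 0.9906, TNF, a cytokine often made together with IFNG, at 0.9896, INTS10 at 0.9815 and MFSD2A, a lipid transporter, at 0.9805. TNF, like IFNG, was highest in FTV, at 15.87 stimulated and 12.78 unstimulated, against 14.78 to 15.30 and 11.83 to 12.39 in the other animals. Closest to IL22 were LINGO4 at 0.9901, the channel gene PANX1 at 0.9900, RUVBL2, a helicase-like ATPase, at 0.9896, PDCD5 at 0.9847 and ATP5SL at 0.9846. PANX1 shared the order of IL22 at its ends, with FBR highest, at 9.12 stimulated and 8.34 unstimulated, and FTV lowest, at 8.94 and 7.78. TNF and PANX1 were picked here by r over these same levels, so a shared order of animals is partly built in. Between IFNG and IL22 themselves r was 0.8348, which placed IL22 446th of 9022 genes for IFNG. For IL22, IL26 came 320th at 0.8935 and IFNG 544th.

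Markers of the sorted cells and of other cell types were read beside these results. CD3D stood at 15.49 in stimulated and 14.64 in unstimulated cells, and all 8 T cell markers were tested: 3 rose, 2 did not pass, and CD5, CD6 and CD247 fell by 1.00, 0.37 and 0.35. Over all features 19.0% were called higher and 21.0% lower. CD4, CD8A and CD8B, which the isolation was meant to remove, were well above background in most channels, at 9.43, 7.34 and 7.69 stimulated and 9.36, 6.93 and 7.53 unstimulated. The summed linear signal of 13 NK cell markers was 25600 in FTV and 4890 to 8930 in the other animals when stimulated, and 17000 in FTV against 4930 to 10000 in the other animals when unstimulated. FTV was also the animal with the most IFNG RNA, but the other animals did not keep 1 order. FBR had the next highest NK sums, at 8930 and 10000, and the lowest unstimulated IFNG, at 7.94. FNV had the lowest NK sums, at 4890 and 4930, and the next highest stimulated IFNG after FTV, at 13.85. NKG7 and GNLY, which cytotoxic T cells also express, made up 63.7% to 86.8% of the stimulated and 64.3% to 87.8% of the unstimulated sum. The other 11 NK markers summed to 9310 stimulated and 5830 unstimulated in FTV, against 1180 to 1510 and 1230 to 1760 in the other animals, a split made after the values were seen. NCR1, KLRC1 and KLRC2 did not pass the filter on dim probes. The summed signal of 4 innate lymphoid markers was highest in FBR, the animal with the most IL22 RNA, at 1830 stimulated and 1460 unstimulated, against 672 to 1320 and 645 to 853 in the others. The unstimulated sums and IL22 levels ordered the animals alike. In stimulated cells FNV had the lowest sum, 672, and the next highest IL22 after FBR, at 14.82. NCR2, a receptor of innate lymphoid cells, was not well above background in any channel. IL1R1, with the highest mean level of these 4 markers, at 9.44 stimulated and 8.76 unstimulated, and IL23R are also listed as IL22 regulators. Monocyte markers, 10 in number, summed to between 4650 and 38800 stimulated and between 5980 and 113000 unstimulated, with the highest values in FNV. Of 9 tested, 6 fell and 0 rose, where 21.0% of all features were called lower and 19.0% higher. B cell markers, 6 with a probe, summed to 1100 to 5290 stimulated and 3980 to 19800 unstimulated, again highest in FNV. Of 5 tested B cell markers 4 fell, beside the same 21.0% of all features. The part of these cells in the levels of IFNG and IL22 was not tested.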

How the data were processed

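The authors deposited the scanner files of all 16 arrays, which hold linear spot intensity with its local background before any normalization. Per the file headers these were read with version 10.7.3.1 of Agilent Feature Extraction. The same files hold a log10 ratio of Cy5 over Cy3 made by that software, per the file headers. A deposited table gives the authors' log2 ratio per animal, and limma is named in the submitters' processing notes. How that table was normalized is not stated.

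Here mean signals were background-corrected (normexp, offset 50), loess-normalized within arrays (control and outlier spots weighted 0), and turned to stimulated over unstimulated. The 2 exchanged arrays of an animal were averaged. Levels used Aquantile normalization. A probe entered the test if, in at least 2 animals, 1 condition gave signal well above background in both dye orientations. The brightest probe stood for a symbol; unnamed probes were features of their own. limma 3.58.1 in R 4.3.3 was fitted over 22825 features with Benjamini-Hochberg adjustment, after a check on simulated data. Levels of CD4 low and CD4 normal animals were compared in the same way. IFNG minus IL22 was tested by exact sign changes.

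Arrays of an animal share its replicate number and its RNA, so pairing comes from the animal. The members and gene lists were chosen with earlier results of these data known. Named genes were the members, genes within 1000 kb, the 5 most alike by r for each member, up to 4 with the largest change per list and 2 of the opposite direction, and 7 fixed receptors and factors. Some listed genes enter the counts but are not reported by name here. Symbols came from both annotation editions and their descriptions. Listed genes without a matched probe were not analysed here. Alternatives are given in the closing section.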

Additional observations from a re-analysis of the deposited data

Results flagged for a closer look

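Of 72 groups of 4 animals checked for a single animal far from the other 3, 7 were singled out by Dixon's criterion, where chance alone gives about 1 in 20. None was a level or a response of IFNG, IL22 or IL26. Among the genes described, the HIF1A response was 0.83 in FBR against 1.16 to 1.21 in the other animals. The JAK2 response was 0.83 in FNV against 1.48 to 1.61. The dimmer RAP1B probe, near 0 throughout, had -0.04 in FNV against 0.02 to 0.03. FNV also stood apart in 4 marker sums. Its unstimulated T cell marker signal was 55600, against 84800 to 87100. Its monocyte marker signal was 38800 stimulated and 113000 unstimulated, against 4650 to 7030 and 5980 to 11500. Its stimulated B cell marker signal was 5290, against 1100 to 1470.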

How the results depend on the processing

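The responses of IFNG and IL22 kept their direction and their call in every alternative run: another background correction or normalization, no filter, every probe, single dye orientations, the conflicting array left out, self-self arrays, scan batch as a term, each animal left out, and the authors' deposited log2 ratios. IFNG ranged from 5.12 to 5.80 (adjusted p from 0.000295 to 0.00715) and IL22 from 5.09 to 5.91 (0.000271 to 0.00743). Self-self arrays with animal as a replicate block gave 5.12 for IFNG and 5.09 for IL22; without the block the counts over all features were 861 higher and 984 lower, against 4347 and 4790, and calls in the lists fell to 2 of 17 IFNG regulators, 3 of 17 IL22 regulators, 2 of 9 interferon gamma signalling genes, 0 of 3 interleukin 22 signalling genes, 8 of 20 interferon gamma targets and 0 of the other locus features. With the block, and with stimulated RNA in Cy3 only, 4 locus features rose, against 7. Median centring gave 1577 higher and 2510 lower, and 7 IL22 regulators, 1 interleukin 22 signalling gene and 2 locus features that rose. Leaving out 1 animal gave 2388 to 5577 higher and 2522 to 5913 lower. Without FBR or FKN 1 interleukin 22 signalling gene rose, against 2. The 2-against-2 comparisons of CD4 low with CD4 normal animals never called IFNG or IL22. The IL22 response and the IFNG stimulated level kept a positive difference in every alternative, and the other 4 differences changed sign in at least 1. Leaving out 1 animal gave -0.36 to 1.06 (IFNG response), 0.04 to 1.00 (IL22 response), -0.57 to 1.11 and -2.21 to 1.32 (IFNG and IL22 unstimulated level), and 0.13 to 1.18 and -1.30 to 1.21 (IFNG and IL22 stimulated level). Without between-array normalization the IL22 differences reversed to 0.11 unstimulated and 1.14 stimulated, and those of IFNG grew to 0.81 and 1.91. With the dim self-self array of FNV left out, chosen after seeing the data, the stimulated differences were 0.52 for IFNG and -0.08 for IL22. IFNG minus IL22 was 0.03 on self-self arrays, a reversed sign. RAP1B had -0.05 on self-self arrays with and without the block. The causes were not tested. Over 46 named probes and 644 refits, 580 kept direction and call, 61 lost the call, 1 gained it and 2 changed sign. Precision was limited by 4 animals, and for unstimulated IL22 of FTV by a signal of 2.21 times background.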
